A study of Mus musculus with 60 samples.

Results

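The genes described here encode the proteasome, the protease that degrades ubiquitin-tagged proteins, in 6 tissues of diet-induced obese mice given sulforaphane (SFN) or vehicle. They are 37 of the 54532 annotated genes in the expression table, 38197 of which were above 0 in at least 1 library. They were chosen by name as the subunits of the barrel-shaped core particle (Psma1 to Psma7 and Psmb1 to Psmb10), of the regulatory cap (Psmc1 to Psmc6 and 11 Psmd genes) and of the PA28 activator (Psme1 to Psme3). The rule uses gene names and no measured value. Male wild-type mice, labelled as strain C57BL/6, started a high-fat diet at 12 weeks of age and stayed on it for 16 to 20 weeks. At about 28 weeks of age 5 mice received SFN, an isothiocyanate from cruciferous vegetables, by daily intraperitoneal injection at 5 mg/kg for 1 week, and the other 5 received vehicle. Poly(A) RNA was sequenced from liver, skeletal muscle, hypothalamus and 3 fat depots, the inguinal (iWAT) and epididymal (eWAT) white fat and brown fat (BAT). Each tissue has 10 libraries, which gives 60 libraries. The numbers in the sample titles recur in each tissue and were read as the same 10 mice. Vehicle mice carry the numbers 1 to 5 and SFN mice 6 to 10. All groups share the diet, sex and genotype, and lean mice were not among the libraries used here.

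The core particle is a stack of rings of alpha and beta subunits, and 3 of its beta subunits cut peptide bonds: Psmb5 with chymotrypsin-like, Psmb6 with caspase-like and Psmb7 with trypsin-like activity. The cap recognises ubiquitin chains, removes them and unfolds the substrate with a ring of ATPases. Immune cells, and other cells exposed to interferon, make the alternative catalytic subunits Psmb8, Psmb9 and Psmb10, which replace Psmb5, Psmb6 and Psmb7 in newly built particles and favour peptides that fit MHC class I molecules. Psme1 and Psme2 form the interferon-inducible activator of that immunoproteasome, whereas Psme3 forms a nuclear activator. Transcription of the constitutive subunits is driven mainly by NRF1 (Nfe2l1) when proteasome activity is limiting. NRF2 (Nfe2l2), the factor that SFN releases from its inhibitor KEAP1, has also been described to raise several subunits in mouse tissues through antioxidant response elements.

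Promoters of the members were taken from the RefSeq table for GRCm38.p6. It held a window, from 250 bases before to 50 bases after the start, for 31 of the 37 genes. The letters TGACNNNGC, the core of the antioxidant response element, were searched on both strands. They occurred in 4 of 34 member windows, those of Psmb5, Psmb6, Psmc6 and Psmd12, a share near the 12.39% of all 32851 windows. The letters TTCNNNGAA, the gamma-activated site, occurred in the windows of Psmb8 and Psmd2 and in 8.3% of all windows. The interferon-stimulated core GAAANNGAAA occurred in those of Psmb3, Psmd4 and Psme1 and in 3.44% of all. None of these letters occurred in the windows of Psmd11, Psmc1, Psma5 and Psmd13, whose values are given below. The 3 windows printed belong to a catalytic subunit with the highest level in 5 of the 6 tissues (Psmb5), to its neighbour in the active-site set (Psmb6) and to the immune subunit that replaces Psmb5 (Psmb8). Capitals mark the antioxidant core in Psmb5 and Psmb6 and the gamma-activated site in Psmb8. A match describes letters in the window and not a bound site.
Psmb5 promoter, chr14:54617946-54618245, minus strand: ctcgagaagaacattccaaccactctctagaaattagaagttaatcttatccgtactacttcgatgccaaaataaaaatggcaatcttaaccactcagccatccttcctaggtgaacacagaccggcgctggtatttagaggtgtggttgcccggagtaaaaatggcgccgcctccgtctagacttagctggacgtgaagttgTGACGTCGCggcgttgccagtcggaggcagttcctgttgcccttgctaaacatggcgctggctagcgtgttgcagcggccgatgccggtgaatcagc
Psmb6 promoter, chr11:70525107-70525406, plus strand: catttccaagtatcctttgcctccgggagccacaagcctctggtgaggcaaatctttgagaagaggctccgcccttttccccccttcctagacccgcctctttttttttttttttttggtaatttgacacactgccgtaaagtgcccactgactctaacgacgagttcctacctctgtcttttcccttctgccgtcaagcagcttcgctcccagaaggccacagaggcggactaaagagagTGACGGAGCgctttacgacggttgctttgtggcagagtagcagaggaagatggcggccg
Psmb8 promoter, chr17:34197945-34198244, plus strand: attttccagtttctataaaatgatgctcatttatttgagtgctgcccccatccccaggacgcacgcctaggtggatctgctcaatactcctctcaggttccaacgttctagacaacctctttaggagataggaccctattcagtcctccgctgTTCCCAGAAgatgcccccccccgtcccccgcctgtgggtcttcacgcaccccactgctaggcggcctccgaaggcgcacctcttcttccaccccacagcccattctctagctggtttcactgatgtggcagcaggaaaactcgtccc

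Depth per library, as reads recovered from the table, was between 14802638 and 25258292. Expression is given in FPKM (fragments per kilobase of gene model), so levels within a library can be set beside each other per length. Libraries were scaled in proportion to median-of-ratios size factors rather than to reads, and comparisons between tissues depend on that scale. The gene models of the members differ in length, from 899 bases for Psmb5 to 7265 for Psmd1, and include little-used exons, which lowers FPKM where the model is long. Neither the counting program nor its use of strand is given in the sources used here, and protein-coding genes lie across several members on the other strand, so their reads cannot be told apart. These pairs are Psmb9 with Tap1, Psmd13 with Sirt3, Psmb7 with Nek6, Psme1 with Emc9, Psmc3 with Slc39a13, Psmd1 with Htr2b and Psma4 with AY074887. Summed markers of liver, muscle, brown fat and neurons were highest in the tissue of that name. White fat markers were highest in iWAT (3458 to 6049 FPKM), whereas eWAT, at 474.1 to 3259 FPKM, overlapped BAT, at 1440 to 1881. A few libraries carried RNA of another tissue. In iWAT, vehicle mouse 2 and SFN mice 6, 7 and 8 had summed lymphocyte and lymph node markers of 266 to 486 FPKM against a median of 13.1 over the 10 iWAT libraries. In BAT, summed muscle markers ran from 0.476 to 2688 FPKM, highest in vehicle mouse 3 and SFN mouse 7. In iWAT the same sum reached 1169 FPKM in vehicle mouse 4.

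Levels without treatment came first, to ask how the subunits are distributed over the tissues. In FPKM as deposited, constitutive subunits were highest in skeletal muscle and liver, and immune subunits in white fat and liver. With every library rescaled to the same FPKM total, most members were lower in skeletal muscle and liver, as given below. The median member stood at 52.1 FPKM in skeletal muscle, 48.5 in liver, 31.1 in BAT, 29.7 in iWAT, 28.4 in eWAT and 19.9 in the hypothalamus (means of 5 vehicle mice). Psmb5 had the highest mean of the 37 in every tissue but the hypothalamus, where it was Psmc5, a cap ATPase, at 93.8 FPKM. Psmb9 had the lowest mean in all 6 tissues. Constitutive subunits varied little between vehicle mice: the median coefficient of variation of the 31 core and cap subunits was 4.71% in the hypothalamus, 5.40% in liver, 5.80% in skeletal muscle, 7.35% in eWAT, 8.02% in BAT and 10.6% in iWAT.

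Psmb5 averaged 158.6 ± 4.03 FPKM in skeletal muscle, 140.3 ± 8.96 in liver, 119.2 ± 10.5 in BAT, 80.6 ± 12.2 in eWAT, 79.7 ± 11.4 in iWAT and 59.2 ± 1.66 in the hypothalamus (SD, n = 5 each). The vehicle mice of eWAT and iWAT overlapped for it, and those of skeletal muscle and liver did not (154.2 to 163.2 against 130.2 to 152.1 FPKM). Its immune counterpart Psmb8 had a different order. Psmb8 averaged 15.8 ± 5.24 FPKM in iWAT, 14.7 ± 1.31 in eWAT, 13.9 ± 0.860 in liver, 5.82 ± 0.926 in BAT, 2.17 ± 0.418 in skeletal muscle and 1.01 ± 0.153 in the hypothalamus. The first 3 of these did not differ beyond their spread, and the others did not overlap with them or with each other.

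A ratio of both subunits within a library is free of library scaling. Psmb8 over Psmb5 was 0.0109 to 0.0170 in skeletal muscle and 0.0148 to 0.0215 in the hypothalamus of vehicle mice, against 0.0364 to 0.0661 in BAT, 0.0951 to 0.103 in liver, 0.141 to 0.210 in eWAT and 0.148 to 0.416 in iWAT. The highest iWAT value was that of mouse 2, with the lymph node markers, and the other 4 lay at 0.148 to 0.186. Psmb9 over Psmb6 was 0.00749 to 0.0158 in muscle and hypothalamus together, 0.0522 to 0.0853 in BAT, 0.0802 to 0.147 in eWAT, 0.101 to 0.137 in liver and 0.143 to 0.445 in iWAT. Psmb10 over Psmb7 was above 1 in every vehicle library of both white fat depots (1.15 to 2.06) and between 0.135 and 0.176 in skeletal muscle. These ratios are shown as levels in the plot of catalytic subunits by tissue.

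**Figure D1:**
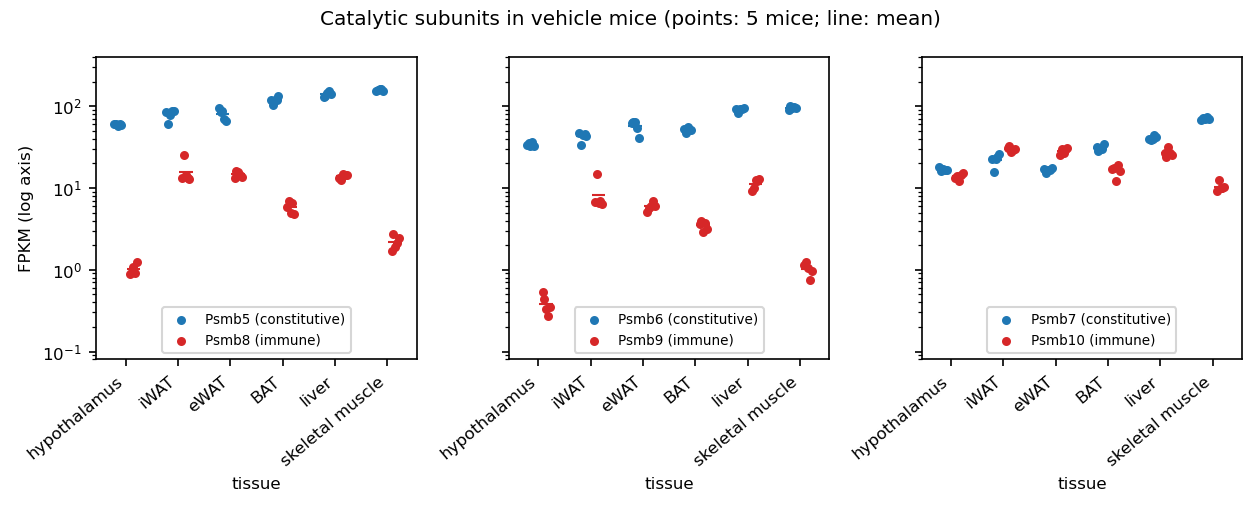
FPKM of the catalytic subunits on a log axis in 5 vehicle mice per tissue, each constitutive subunit (blue) beside the immune subunit that replaces it (red), with a line at the mean. Psmb8 averaged 2.17 FPKM beside 158.6 FPKM of Psmb5 in skeletal muscle, and 14.7 beside 80.6 in eWAT.

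Each tissue was then tested against the mean of the other 5 in the vehicle mice with limma over 16276 genes, at an adjusted p under 0.05. In skeletal muscle 32 members were higher, where 35.6% of all genes were higher, and 5 were lower, where 49.8% of all genes were lower. Those 5 were Psmb8, Psmb9, Psmb10, Psme1 and Psme2, the interferon-inducible members. In liver 35 members were higher and 0 lower (36.6% and 46.2% of all genes), and by limma the remaining Psmd8 and Psme3 did not pass. In eWAT 4 were higher, namely Psmb8, Psmb9, Psmb10 and Psme2, and 27 lower (34.3% and 44.9% of all genes). In iWAT 6 were higher, those 4 with Psme1 and Psma1, and 26 lower (31.0% and 41.9%). In BAT 7 were higher, among them Psmb5, Psma6 and Psmd8, and 18 lower (29.1% and 43.9%). In the hypothalamus only Psmc5 was higher and 35 were lower (41.3% and 44.0%).

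These directions hold relative to the size-factor scale of the table. With every library rescaled to the same FPKM total, the median of all genes moved from -0.27 to -1.20 log2 units in skeletal muscle and from -0.06 to 0.96 in the hypothalamus, and the members split 12 higher and 20 lower in skeletal muscle, 8 and 22 in liver, 2 and 33 in BAT, 35 and 1 in eWAT, 28 and 1 in iWAT and 22 and 7 in the hypothalamus. A filter of 0.5 FPKM on the mean was applied on each scale. The gene medians thus cover 16276 genes as deposited and 20228 after rescaling. The distance between the median member and the median gene moved little. It was 1.04 log2 units in skeletal muscle on both scales, 0.75 and 0.78 in liver, 0.03 and 0.05 in BAT, -0.17 and -0.14 in eWAT, -0.25 and -0.22 in iWAT, and -0.62 and -0.71 in the hypothalamus.

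SFN was next compared with vehicle in each tissue, to ask whether the treatment moved proteasome genes. No member passed an adjusted p of 0.05 in any tissue by limma, and none did by edgeR on recovered reads. By DESeq2, Psmb5, Psmc5 and Psmd7 passed as higher in BAT, Psmd8 and Psmd13 as higher and Psmd4 as lower in liver, and 0 in the other tissues. In liver 13.1% of all 13388 genes tested passed by limma, in eWAT 0.209%, in BAT 0.0075%, in iWAT 0.00707%, and in hypothalamus and skeletal muscle 0%. All 37 members were tested except in the hypothalamus, where Psmb9, at 0.238 to 0.568 FPKM over the 10 libraries, was under the filter of 0.5 FPKM on the mean. The sizes were small outside white fat, as the map of fold changes shows. In bulk tissue, fewer cells of a type and less RNA per cell cannot be told apart.

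**Figure D2:**
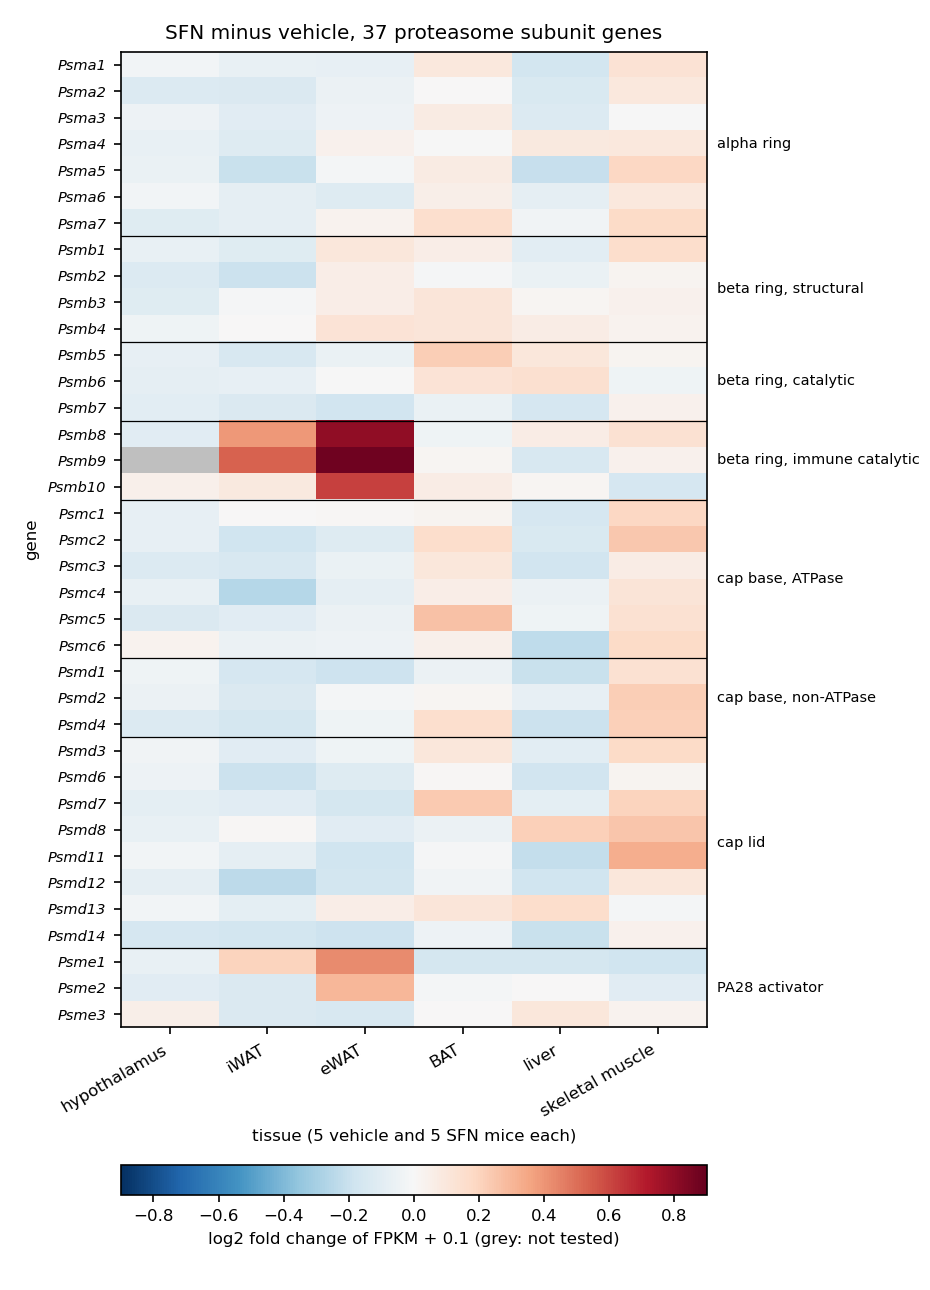
Log2 fold change of SFN over vehicle for each member (rows, by role) in each tissue (columns), 5 mice per group, on log2(FPKM + 0.1). Values from Psmb8, Psmb9 and Psmb10 in eWAT (0.80, 0.87 and 0.62) stand out from the constitutive subunits, which lie between -0.25 and 0.33 in all tissues. Grey marks Psmb9 in the hypothalamus, which was not tested.

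Skeletal muscle leaned upward, with cap subunits furthest. At an unadjusted p under 0.05, 11 of 37 members were higher, where 5.62% of all genes were, and 0 were lower, where 8.02% were. The median member stood at 0.10 log2 units and the median gene at -0.02. Of the 17 cap subunits 16 had a positive fold change with a median of 0.17, and of the 14 constitutive core subunits 12 had, with a median of 0.06. Psmb5, Psmb6 and Psmb7 themselves lay at 0.03, -0.04 and 0.04.

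Psmd11, a scaffold subunit of the lid, had the largest fold change in muscle. It was at 26.9, 25.0, 26.4, 29.1 and 24.8 FPKM in vehicle mice 1 to 5 and at 27.9, 39.1, 40.1, 28.1 and 32.6 FPKM in SFN mice 6 to 10. SFN mice 7, 8 and 10 lay above all vehicle mice, and mice 6 and 9 within their range (log2 fold change 0.33, standard error 0.11, adjusted p = 0.275). Psmc1, an ATPase of the cap, was at 98.8, 100.4, 101.7, 112.4 and 105.0 FPKM in vehicle mice and 108.8, 121.9, 127.5, 111.6 and 119.5 FPKM in SFN mice (log2 fold change 0.18, standard error 0.06, adjusted p = 0.266). Again mice 7, 8 and 10 were above the vehicle range and mice 6 and 9 inside it. Psmc2, another ATPase, had 33.4, 43.7, 45.0, 35.8 and 43.4 FPKM in the SFN mice against 32.7 to 36.5 in vehicle mice. The same 3 mice stood above the vehicle range for Psmd2, a scaffold of the cap base, and for Psmd4, a ubiquitin receptor.

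The median deviation of the 17 cap subunits from the vehicle mean summarises each muscle. It was -0.02, 0.25, 0.28, 0.06 and 0.24 log2 units in SFN mice 6 to 10, and -0.07 to 0.11 in vehicle mice. The interferon-inducible members were mixed, with fold changes of 0.14 for Psmb8, 0.04 for Psmb9, -0.15 for Psmb10, -0.18 for Psme1 and -0.10 for Psme2, and their difference from the cap subunits was not tested. Psmb8 averaged 2.17 ± 0.418 FPKM in vehicle and 2.37 ± 0.277 in SFN mice, Psmb10 10.4 ± 1.25 and 9.32 ± 1.02, and Psme1 20.7 ± 3.16 and 18.2 ± 2.35 (SD, n = 5 and 5), all with overlapping groups.

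Of the genes that work with the proteasome, none passed the adjusted threshold in muscle. A positive fold change was seen in 45.3% of all genes, in 14 of 16 genes for ubiquitin, its activation and its shuttles (median 0.12), in 7 of 9 ubiquitin ligases of muscle (median 0.21) and in 7 of 9 regulators (median 0.16). It was seen in 6 of 9 assembly factors (median 0.05) and in 6 of 10 further proteasome-associated genes (median 0.10). The last 2 lists share Psmd5, Psmd9 and Psmd10, and the ubiquitin and regulator lists share Ddi2, so these counts are not independent. Fbxo32, which encodes the atrophy-associated ligase atrogin-1, was at 71.6 to 124.3 FPKM in vehicle mice and at 123.6, 337.5, 356.1, 71.0 and 325.9 FPKM in SFN mice 6 to 10. Mice 7, 8 and 10 were thus highest here as well (log2 fold change 1.08, standard error 0.43, adjusted p = 0.323). Asb2, a ligase that turns over muscle proteins, was 436.5 to 524.3 FPKM in vehicle and 540.6 to 769.6 FPKM in SFN mice, without overlap (log2 fold change 0.42, standard error 0.10, adjusted p = 0.213). Zfand5, which stimulates the proteasome in atrophying muscle, had 84.1, 115.7, 135.3, 79.9 and 114.9 FPKM in SFN mice against 77.9 to 85.0 in vehicle mice. Of the 9 regulators of proteasome genes, Mafg, a small MAF partner of NRF1 and NRF2, was 22.3 to 32.0 FPKM in vehicle mice and 26.6, 42.8, 44.2, 32.5 and 38.4 FPKM in SFN mice (adjusted p = 0.304).

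Liver leaned the other way for most, but not all, subunits. At an unadjusted p under 0.05, 10 of 37 members were lower, where 15.7% of all liver genes were, and 3 were higher, where 14.5% were. The median member stood at -0.09 and the median gene at -0.02. Those lower were 8 cap subunits with Psma5 and Psmb7, by 0.15 to 0.23 log2 units, and those higher were Psmd13, Psmd8 and Psmb6. The count depended on the scaling: with every library at the same FPKM total, 10 members passed the adjusted threshold as lower and 0 as higher.

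Psma5, an alpha ring subunit, was at 68.2, 64.4, 68.3, 65.2 and 65.3 FPKM in vehicle livers and 62.8, 55.8, 50.9, 63.2 and 54.6 FPKM in SFN livers. The groups did not overlap (log2 fold change -0.21, standard error 0.07, adjusted p = 0.0661). With single mice left out the adjusted p ran from 0.0362, without SFN mouse 9, up to 0.133. Psmd4 was 53.2 to 60.2 FPKM in vehicle and 51.8, 52.1, 45.7, 54.6 and 46.8 FPKM in SFN livers, with overlap through SFN mouse 9. Its log2 fold change was -0.20 (standard error 0.06, adjusted p = 0.0677, from 0.0408 without SFN mouse 9 up to 0.139 without another single mouse). Psmd13, a lid subunit, went against them. It was at 30.6, 32.0, 32.1, 30.4 and 29.7 FPKM in vehicle and at 35.4, 35.3, 35.0, 32.9 and 33.9 FPKM in SFN livers, without overlap. Its adjusted p was the smallest of any member in any tissue (log2 fold change 0.16, standard error 0.05, adjusted p = 0.0532). With single mice left out it ran from 0.0440, without SFN mouse 9, up to 0.117. Without SFN mouse 9, 6 members passed, Psmd13 as higher and Psma5, Psmc6, Psmd1, Psmd4 and Psmd11 as lower.

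Catalytic and activator genes of the liver went in both directions, and none passed the adjusted threshold. Psmb5 averaged 140.3 ± 8.96 FPKM in vehicle and 150.7 ± 5.65 in SFN livers, Psmb6 90.9 ± 5.23 and 100.2 ± 6.14, and Psmb7 40.6 ± 2.45 and 36.6 ± 2.53 (SD, n = 5 and 5), with overlap in each. Psmb8 averaged 13.9 ± 0.860 and 14.7 ± 2.27 FPKM, Psmb9 11.3 ± 1.60 and 10.3 ± 1.59, and Psme1 52.3 ± 4.29 and 47.0 ± 4.97. Psme3 was 25.3 to 27.6 FPKM in vehicle and 27.8 to 29.9 in SFN livers, without overlap (log2 fold change 0.10, standard error 0.05, adjusted p = 0.174).

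Genes around the proteasome passed in liver, where 13.1% of all genes did in either direction. Of 11 further proteasome-associated genes tested 3 fell and 0 rose. Usp14, a deubiquitinase of the cap, was 9.42 to 11.8 FPKM in vehicle and 5.75 to 9.18 FPKM in SFN livers (log2 fold change -0.52, standard error 0.13, adjusted p = 0.0293). Uchl5, another cap-bound deubiquitinase, was 7.94 to 10.1 and 6.48 to 7.81 FPKM (adjusted p = 0.0249). Akirin2, which helps carry proteasomes into the nucleus, was 18 to 20.1 and 13.6 to 17.2 FPKM (adjusted p = 0.0340). Groups did not overlap for any of the 3, which were named because they passed in the same livers. Each lost its call when some single mice were left out, with adjusted p up to 0.0697 for Usp14 (without mice 2, 4, 5, 7, 8 or 10), 0.0586 for Uchl5 (without 1, 2, 5, 7, 8 or 10) and 0.0758 for Akirin2 (without 1, 2, 3, 4, 5, 7 or 8). Among 9 assembly factors 1, Psmg3, fell, a share near that of all genes. Its log2 fold change was -0.37 (adjusted p = 0.0335, and up to 0.0751 without mice 2, 3, 5, 7, 8 or 10). With no filter on low values Usp14, Akirin2 and Psmg3 also lost their calls, with adjusted p up to 0.0553, 0.0546 and 0.0646 over the other settings.

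Genes for ubiquitin and its handling passed in both directions. Rps27a, whose product is ubiquitin fused to a ribosomal protein, rose from 87.3 to 100.7 FPKM to 113.9 to 159.6 FPKM (log2 fold change 0.56, standard error 0.09, adjusted p = 0.00694). It kept its call without any single mouse, with an adjusted p up to 0.0225. Zfand5 fell (-0.30, adjusted p = 0.0485) and Zfand2a, a stress-induced cap-binding protein, rose (0.30, adjusted p = 0.0358), with adjusted p up to 0.106 and 0.0814 when single mice were left out. For Zfand5 every mouse but 4 and 6 ended the call, and for Zfand2a every mouse but 4, 6 and 9. Other settings ended both calls too, with adjusted p up to 0.0839 for Zfand5 and, with every library at the same FPKM total, up to 0.108 for Zfand2a.

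**Figure D3:**
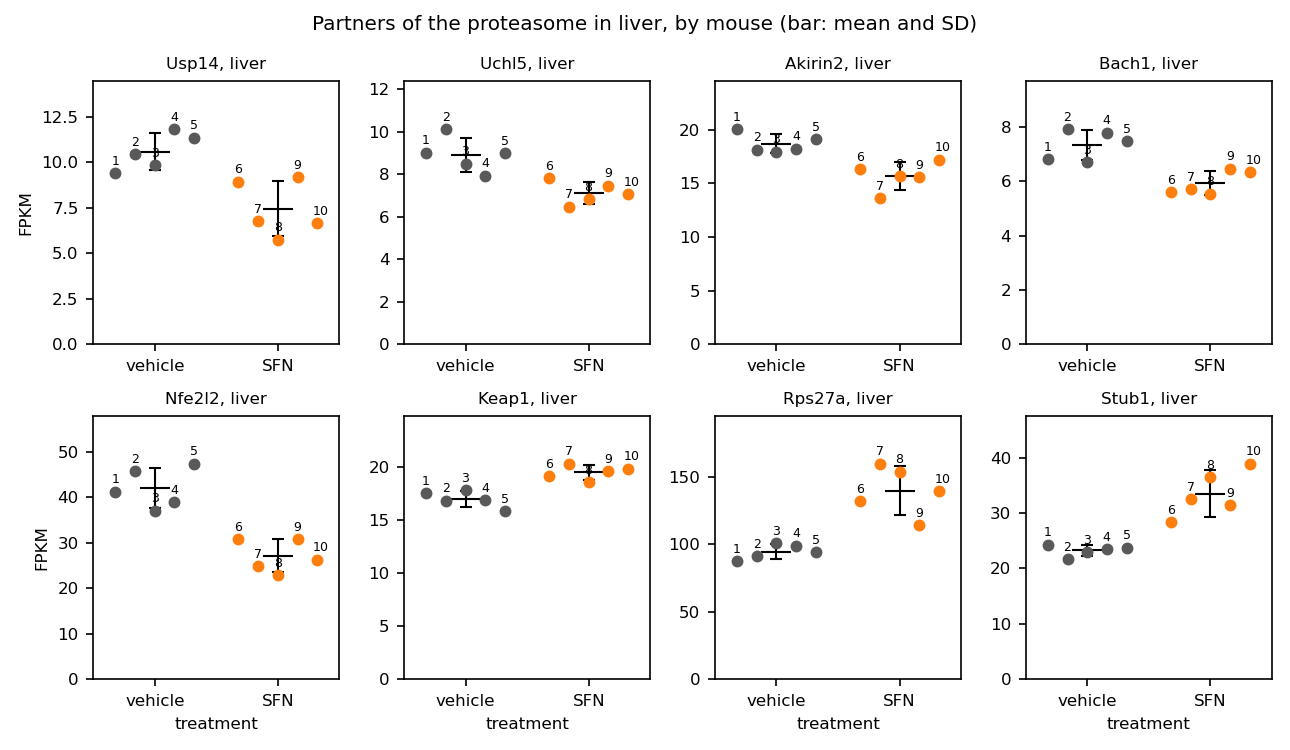
FPKM per liver library of 8 genes that work with the proteasome or control its genes, in vehicle mice 1 to 5 (grey) and SFN mice 6 to 10 (orange), with bars at the mean and SD. Usp14, Uchl5, Akirin2, Bach1 and Nfe2l2 are lower and Keap1, Rps27a and Stub1 higher in SFN mice. The groups do not overlap for any of them, but the 8 were picked from genes that passed in these livers. The share of all liver genes without overlap was not computed.

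Of the 9 regulators of proteasome genes, 3 fell and 1 rose in liver, where 13.1% of all genes passed in either direction. Nfe2l2 was at 41.2, 45.8, 37.1, 38.9 and 47.4 FPKM in vehicle livers and at 30.9, 24.8, 22.9, 30.9 and 26.2 FPKM in SFN livers, without overlap (log2 fold change -0.64, standard error 0.10, adjusted p = 0.00641). Maff, a small MAF protein, fell by 1.04 on the log2 scale (adjusted p = 0.0205). Both calls held without any single mouse, up to 0.0202 and 0.0493. Bach1, a repressor at antioxidant response elements, fell by 0.30 (adjusted p = 0.0238, and up to 0.0574 without mice 2, 4, 5, 7 or 8), and Keap1 rose by 0.20 (adjusted p = 0.0313, and up to 0.0726 without mice 2, 4, 5, 7 or 10). The call of Keap1 ended with every library at the same FPKM total (adjusted p = 0.13) and that of Bach1 with all 60 libraries in 1 fit (adjusted p = 0.0683). The ligase Stub1 rose from 21.7 to 24.3 FPKM to 28.4 to 38.9 FPKM (log2 fold change 0.52, adjusted p = 0.00641, up to 0.0191 without a single mouse).

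In the class I presentation list of 15 genes, 2 passed as higher and 2 as lower in liver, where 13.1% of all genes passed in either direction. Calr and Pdia3, chaperones of the endoplasmic reticulum that load class I molecules, rose by 0.93 and 0.83 log2 units (adjusted p = 0.00791 and 0.0122, up to 0.0243 and 0.0343 without a single mouse). B2m, the class I light chain, fell from 2914 to 3265 FPKM to 1853 to 2843 FPKM (adjusted p = 0.0484, up to 0.106, lost without any mouse but 6 or 9). H2-Q4, a class I heavy chain, fell by 0.38 (adjusted p = 0.0271, up to 0.0594 without mice 1, 2, 3, 8 or 10). With all 60 libraries in 1 fit H2-Q4 was at an adjusted p of 0.19, and B2m reached 0.234 under other settings, ending its call with TMM scaling and with no filter. The other 11 genes of the list did not pass.

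The opposite leanings of muscle and liver were tested directly as the difference of the SFN responses, muscle minus liver. By limma 4 of 37 members passed, all higher in muscle relative to liver, where 5.92% of all 14248 genes passed in either direction. At an unadjusted p under 0.05, 17 members were higher, where 10.8% of all genes were, and 2, Psmb6 and Psmd13, were lower, where 11.4% were. The difference was 0.54 for Psmd11 (standard error 0.14, adjusted p = 0.0260), 0.41 for Psmd4 (0.11, adjusted p = 0.0330), 0.39 for Psma5 (0.10, adjusted p = 0.03) and 0.34 for Psmc1 (0.09, adjusted p = 0.0348). By their numbers, both tissues were read as coming from the same mice. With the mouse as a block 0 of the 4 passed, with adjusted p of 0.0944, 0.0964, 0.122 and 0.127 in the same order.

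Single mice also decided those calls. No member passed when vehicle mouse 1, 2, 3 or 5 or SFN mouse 7, 8 or 10 was left out of both tissues, 2 passed without vehicle mouse 4, 8 without SFN mouse 6 and 13 without SFN mouse 9. In liver, SFN mice 7, 8 and 10 were the lowest for Psmd11, at 22.8, 21.4 and 22.8 FPKM, with mice 6 and 9 at 25.3 and 27.2 and vehicle mice at 24.8 to 29.6. The median deviation of the 17 cap subunits was -0.04, -0.14, -0.28, 0.02 and -0.25 log2 units in the livers of SFN mice 6 to 10. Hence the 3 mice with the highest cap subunits in muscle had the lowest in liver. Summed liver markers (Alb, Apoa1, Ttr and Cyp2e1) were 43000, 41420 and 43180 FPKM in the livers of the same mice 7, 8 and 10, against 65870 and 57840 in mice 6 and 9 and 58310 to 66430 in vehicle mice. The part of that shift in the cap subunits was not tested.

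**Figure D4:**
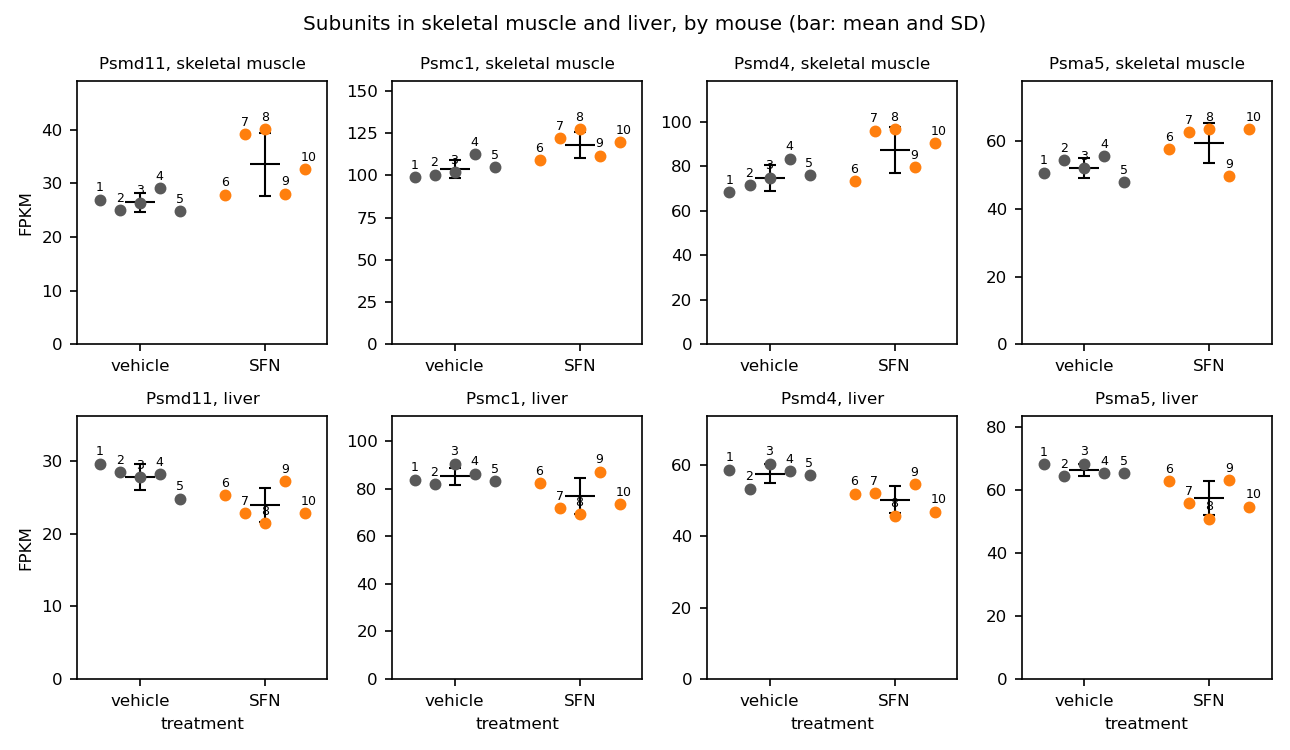
FPKM per library of the 4 members whose SFN response differed by limma between skeletal muscle (top) and liver (bottom), vehicle mice 1 to 5 (grey) and SFN mice 6 to 10 (orange), bars at mean and SD. None of the 4 passed with the mouse as a block, and each call ended when some single mice were left out. SFN mice 7, 8 and 10 lie high in muscle and low in liver, as for Psmd11 at 39.1, 40.1 and 32.6 FPKM in muscle and 22.8, 21.4 and 22.8 FPKM in liver.

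The muscle response was set against that of the other tissues in the same way, and no member passed by limma. All of these comparisons share the muscle libraries. Against the hypothalamus 0 passed (0.0453% of all genes), and at an unadjusted p under 0.05 14 were higher (4.1% of all genes) and 0 lower (6.46%). Against iWAT 0 passed (0%), with 10 higher (4.69%) and 0 lower (3.28%) at that level. Against eWAT 0 passed (0.0914%), with 9 higher (5.23%) and 3 lower (7.38%), the latter being Psmb9, Psmb10 and Psme1. Against BAT 0 passed (0.0148%), with 1 higher (4.28%) and 2 lower (6.25%), which were Psmb5 and Psmb6. Without SFN mouse 6, 4 members passed against the hypothalamus.

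In BAT the leaning was upward and small. At an unadjusted p under 0.05, 7 members were higher, where 8.33% of all genes were, and 0 were lower, where 7.08% were. Psmb5 was at 118.6, 104.3, 119.1, 120.3 and 133.9 FPKM in vehicle and at 138.7, 133.0, 144.7, 136.7 and 138.6 FPKM in SFN mice, with overlap only through vehicle mouse 5 and SFN mouse 7 (log2 fold change 0.22, standard error 0.06, adjusted p = 0.151). Psmb6 was 46.9 to 55.2 and 56.2 to 56.6 FPKM, without overlap (log2 fold change 0.12, standard error 0.05, adjusted p = 0.276). Psmd7, a lid subunit, was 27.9 to 34.4 and 35.1 to 39.6 FPKM, also without overlap (log2 fold change 0.23, standard error 0.06, adjusted p = 0.141). Psmc5 averaged 51.4 ± 4.50 and 61.6 ± 4.83 FPKM (SD, n = 5 and 5, adjusted p = 0.149). The fold changes of the immune subunits Psmb8, Psmb9 and Psmb10 were -0.04, 0.02 and 0.07, with overlapping groups in each, beside a median of 0.06 for the 31 constitutive subunits. The libraries with most muscle RNA, vehicle mouse 3 and SFN mouse 7, had 34.4 and 37.3 FPKM of Psmd7, and the part of that RNA in these differences was not tested.

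In eWAT the 3 immune subunits had the largest fold changes of the members. None of them passed the adjusted threshold, and their difference from the constitutive subunits was not tested. At an unadjusted p under 0.05, 3 members were higher, a share near the 7.64% of all genes, and these were Psmb8, Psmb9 and Psmb10. Another 4 were lower, where 5.71% of all genes were: Psmb7, which Psmb10 replaces, and the lid subunits Psmd7, Psmd12 and Psmd14. The median of the 31 constitutive core and cap subunits was -0.05 log2 units.

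Psmb8 was at 13.3, 16.3, 15.9, 14.2 and 13.8 FPKM in vehicle and at 22, 15.9, 21.8, 61.8 and 22.7 FPKM in SFN mice 6 to 10. SFN mouse 9 was far above the rest, mice 6, 8 and 10 were above all vehicle mice, and mouse 7 was within their range (log2 fold change 0.80, standard error 0.30, adjusted p = 0.281). Psmb9 was at 5.06, 5.67, 6.08, 6.99 and 6.03 FPKM and at 9.63, 6.90, 9.25, 28.7 and 8.86 FPKM, again highest in mouse 9 and lowest in mouse 7 among SFN mice (log2 fold change 0.87, standard error 0.32, adjusted p = 0.275). Psmb10 was at 25.1, 30.1, 26.9, 28.8 and 31.1 FPKM and at 36.6, 31.8, 36.3, 93.7 and 39.1 FPKM, without overlap (log2 fold change 0.62, standard error 0.26, adjusted p = 0.330). Without SFN mouse 9 the fold changes were 0.48, 0.53 and 0.34, with adjusted p of 0.136, 0.12 and 0.152.

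The ratio of each immune subunit to the one it replaces did not overlap between the groups for Psmb8 over Psmb5 and Psmb10 over Psmb7. Psmb8 over Psmb5 was 0.141, 0.190, 0.180, 0.203 and 0.210 in vehicle and 0.339, 0.237, 0.287, 0.634 and 0.277 in SFN mice. Psmb10 over Psmb7 was 1.48 to 1.97 in vehicle and 2.07 to 2.58 in SFN mice but for mouse 9, at 7.16. For Psmb9 over Psmb6 SFN mouse 7, at 0.142, was below vehicle mouse 5, at 0.147. Psme1 was 30.6 to 31.9 FPKM in vehicle and 35.5, 29.9, 36.9, 80.0 and 41.5 FPKM in SFN mice (log2 fold change 0.42, adjusted p = 0.439, and 0.19 without mouse 9). Psme2 was 42.3 to 47.3 and 43.9, 41.8, 46.8, 116.1 and 51.4 FPKM (0.30, adjusted p = 0.627, and 0.03 without mouse 9). Psme3, which interferon does not induce, averaged 24.2 ± 1.5 and 22 ± 1.81 FPKM.

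The class I presentation genes of eWAT leaned with the immune subunits. A positive fold change was seen in 15 of 15 (median 0.43, all genes 0.00), where 50.7% of all genes had one. By limma 0 passed, and 7 were higher at an unadjusted p under 0.05, where 7.64% of all genes were. Without SFN mouse 9 the fold changes of the 15 ran from 0.06 for B2m to 0.53 for Tap1. Tap1, the peptide transporter beside Psmb9, was 5.85 to 7.37 FPKM in vehicle and 10.7, 7.89, 10.5, 27.6 and 8.79 FPKM in SFN mice, and Irf1, an interferon-induced activator, was 9.33 to 10.2 and 12.9, 11.2, 15.1, 32.4 and 12.4 FPKM. Both were without overlap and highest in mouse 9 (adjusted p = 0.242 and 0.276). Summed macrophage markers were 1739 to 4416 FPKM in vehicle and 3607, 3382, 3598, 5448 and 4739 FPKM in SFN mice. Of these 8 markers 6 had a positive and 2 a negative fold change, with 2 higher and 1 lower at an unadjusted p under 0.05. By limma 1 passed as higher, where 0.209% of all genes passed in either direction. This was Mrc1, which marks resident macrophages (53.8 ± 8.47 to 99.1 ± 9.31 FPKM, SD, n = 5 and 5, adjusted p = 0.0296). Its call ended without any single mouse but 5, 8 or 9, with adjusted p up to 0.0933. Summed lymphocyte markers were 6.05 to 17.8 FPKM in vehicle and 18.1, 4.13, 9.72, 26.6 and 5.71 FPKM in SFN mice, with Ccl21a listed at 0 throughout. Summed white fat markers were lowest in SFN mouse 9, at 474.1 FPKM against 822.8 to 3259 in the other 9 eWAT libraries. The part of these cells in the immune subunits was not tested.

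**Figure D5:**
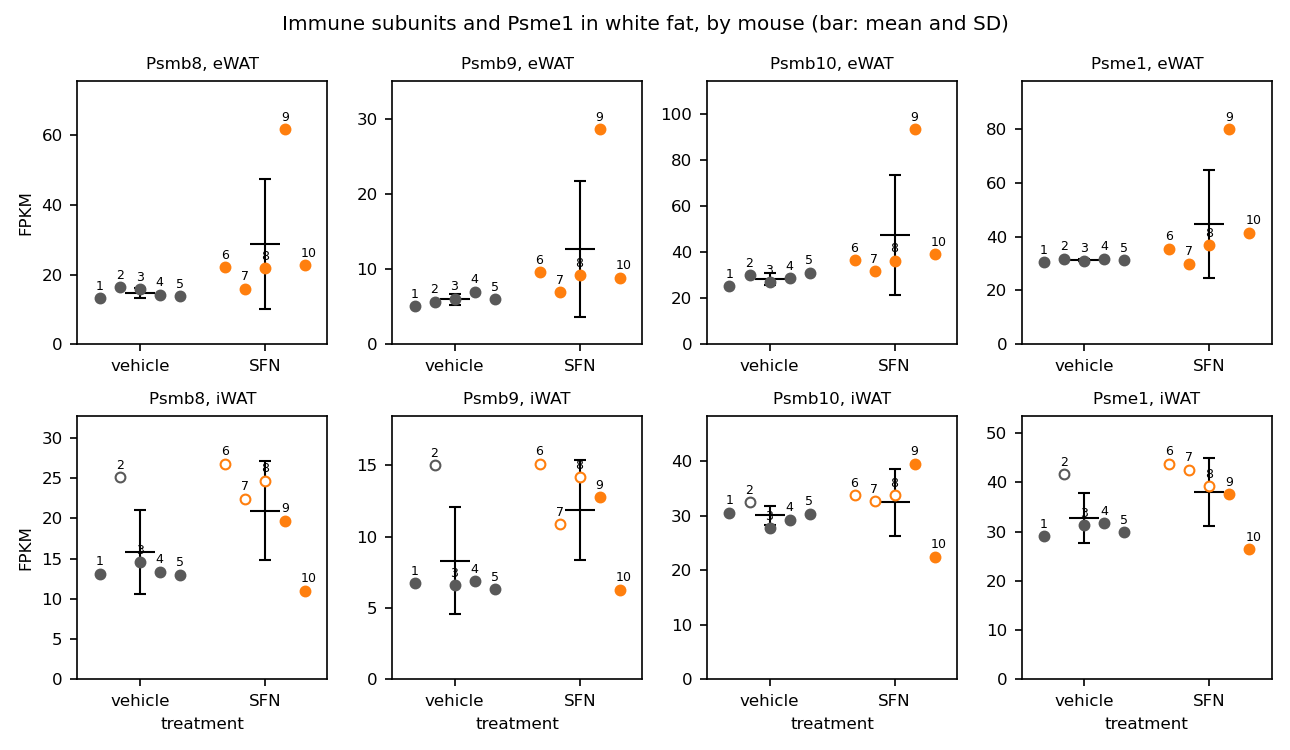
FPKM per library of Psmb8, Psmb9, Psmb10 and Psme1 in eWAT (top) and iWAT (bottom), vehicle mice 1 to 5 (grey) and SFN mice 6 to 10 (orange), bars at mean and SD. In eWAT SFN mouse 9 is highest (Psmb8 at 61.8 FPKM), and in iWAT open symbols mark the 4 libraries high in lymph node markers, with Psmb8 at 22.5 to 26.8 FPKM.

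In iWAT Psmb8 was highest in the libraries with lymph node markers, and Psmb9 and Psmb10 were not ordered that way. At an unadjusted p under 0.05, 0 members were higher, where 2.68% of all genes were, and 1, the cap ATPase Psmc4, was lower, where 5.62% were. Psmb8 was at 13.1, 25.2, 14.5, 13.4 and 13.0 FPKM in vehicle and at 26.8, 22.5, 24.7, 19.7 and 11 FPKM in SFN mice. The 4 libraries high in lymph node markers (vehicle mouse 2, SFN mice 6, 7 and 8) were the 4 highest, and SFN mouse 9, with a marker sum of 4.91 FPKM, was next (log2 fold change 0.39, standard error 0.26, adjusted p = 0.685). Without those 4 libraries the fold change of Psmb8 was 0.13, from 4 vehicle and 2 SFN mice, and that of Psmb9 went from 0.53 to 0.43 and of Psme1 from 0.20 to 0.05. Psmb10 was highest in SFN mouse 9, at 39.5 FPKM against 32.4 to 33.7 FPKM in those 4 libraries, and Psmb9 was at 12.8 FPKM in mouse 9 and 10.9 FPKM in mouse 7. Psmb5 was at 84.6, 60.5, 78.0, 87.2 and 88.0 FPKM in vehicle and at 59.2, 99.0, 62.0, 74.3 and 69.6 FPKM in SFN mice, where 3 of those 4 libraries, mice 2, 6 and 8, were the lowest. The 31 constitutive subunits had a median of -0.11 log2 units, and 28 of them were negative.

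In the hypothalamus nearly every member was slightly lower. A negative fold change was seen in 33 of 36 members, with a median of -0.07 log2 units (all genes 0.01), and at an unadjusted p under 0.05 8 were lower, where 2.92% of all genes were, and 0 higher, where 3.59% were. Psmc5 was at 93.7, 93.2, 92.9, 100.2 and 88.8 FPKM in vehicle and at 90.7, 87.9, 82.2, 84.4 and 82.3 FPKM in SFN mice, with overlap through SFN mouse 6 (log2 fold change -0.13, standard error 0.04, adjusted p = 0.680). Psmd14, the lid protease that removes ubiquitin chains, averaged 18.4 ± 1.07 and 16.6 ± 0.820 FPKM (SD, n = 5 and 5, adjusted p = 0.681). Psmb8 was at 0.888 to 1.25 FPKM in vehicle and 0.670 to 1.25 FPKM in SFN mice.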

How the data were processed

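The authors deposited FPKM values per gene for 60 poly(A) libraries and, per tissue, a table of raw read counts and gene lengths limited to genes whose unadjusted p was below 0.05 when they compared SFN with vehicle. The library denominator of the FPKM was proportional to median-of-ratios size factors over all 60 libraries (within 0.271%) rather than to reads (within 45.1%). Deposited counts and lengths were used to recover reads: 37653 of 38197 genes above 0 gave whole reads within 0.01 (98.58%), all 37 members among them, and 0 of 146080 known counts differed. The normalised values, log2 fold changes and p-values of the authors' comparisons in those tables were not used. The submitters' processing notes name the builds mm10 and GRCm38, while aligner, counter and annotation are not given in the texts consulted.

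Genes averaging 0.5 FPKM or more over the libraries compared were tested on log2(FPKM + 0.1) by limma 3.58.1 with an intensity trend (R 4.3.3), two-sided, Benjamini-Hochberg adjusted over all genes kept, tissue by tissue, and the fit was tested on simulated data. A fold change on this scale understates that of low genes. Recovered reads were tested with edgeR 4.0.16 and with DESeq2 1.42.0 as alternatives. The other alternatives were pseudocount, filter, scaling, trend, all libraries in 1 fit, and leaving out each mouse. The sample titles carry the same numbers in each tissue, which were read as the mouse. Comparisons between tissues had no mouse term in the main fit, and the mouse entered as a block only in an alternative. Deviations under the same number in 2 tissues correlated from -0.755 (iWAT with BAT, mouse 4) to 0.381 (iWAT with eWAT, mouse 2). Most of the other correlations were small. Vehicle and SFN mice of a tissue are different animals.

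Members and lists were chosen with earlier results of these data known. Named were Psmb5 to Psmb10 and Psme1 to Psme3, members that passed, per tissue the 3 members with the smallest p and those with extreme means, and of other lists the genes that passed and up to 4 with the smallest p. Any other member or gene named was chosen after its values were seen. A result for 1 gene of the other lists is not reported here.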

Additional observations from a re-analysis of the deposited data

Results flagged for a closer look

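In 136 groups of 5 mice checked for a member far from the rest, 15 had such a value, where chance gives about 1 in 20. In eWAT SFN mouse 9 stood apart for Psmb8 (61.8 FPKM), Psmb9 (28.7), Psmb10 (93.7), Psme1 (80.0) and Psme2 (116), 5 values of 1 library. In iWAT vehicle mouse 2, high in lymph node markers, stood apart for Psmb8 (25.1 FPKM), Psmb9 (15.0) and Psme1 (41.7), and was lowest for Psmb6 (33.7). In the hypothalamus Psme2 was highest in vehicle mouse 4 (14.1 FPKM) and SFN mouse 6 (14.6), and Psme3 in vehicle mouse 3 (27.2). In BAT Psmb7 was highest in SFN mouse 9 (32.3 FPKM) and Psmb9 lowest in SFN mouse 7 (2.98). In liver Psmb6 was lowest in vehicle mouse 2 (81.8 FPKM).

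The SFN response differed between skeletal muscle and liver by limma for Psmd11 (0.545 on the log2 scale), Psmd4 (0.412), Psma5 (0.394) and Psmc1 (0.336), and for 0 of them with the mouse as a block.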

How the results depend on the processing

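The main count of members passing was 0 in every tissue for SFN against vehicle. With all 60 libraries in 1 fit it was 3 in eWAT (Psmb8, Psmb9, Psmb10), 3 in liver and 1 in skeletal muscle (Psmd11). DESeq2 gave 3 in BAT and 3 in liver. In liver a filter of 2 FPKM gave 1, TMM scaling gave 1, scaling to the same FPKM total gave 10, and leaving out single mice gave 0 to 6. For muscle minus hypothalamus single mice gave 0 to 4. For muscle minus liver the main count of 4 became 1 with no filter, 12 after scaling to the same FPKM total, 0 with the replicate block and 0 to 13 without single mice. The replicate block moved no other count by over 1.5 times. Of the named single genes, 0 reversed a call. Of the called genes of other lists named in the report, calls ended with no filter for Usp14, Akirin2, Psmg3, Zfand5, Zfand2a, B2m and Mrc1, with TMM for Zfand5 and B2m, with the same FPKM total for Keap1 and Zfand2a, with 1 fit for Bach1 and H2-Q4, and without the intensity trend for Akirin2 and Zfand5. Psmb9 in the hypothalamus, at 0.238 to 0.568 FPKM, was under the filter and was not tested. The cause of these changes was not tested.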
